A study of Mus musculus with 14 samples.

Results

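Genes of the Lkb1 and AMPK pathway, 10 in all, were followed in sorted tumor cells with and without a guide against Setd2. They were Stk11, Strada and Cab39, which encode the Lkb1 complex, then Prkaa1, Prkaa2, Prkab1 and Prkag1, which encode AMPK subunits, and the salt-inducible kinases Sik1, Sik2 and Sik3. The genes were chosen by name, and each of the 10 matched 1 row of the 52550 in the table through its Ensembl identifier in the GENCODE annotation of GRCm38. All 10 were among the 16836 genes that passed the edgeR expression filter.

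RNA-seq was available for 6 KPY-Ctrl and 8 KPY-Setd2KO lung adenocarcinomas. All tumors arose in mice of a mixed strain background that carried the deletable tumor suppressor Trp53 flox/flox and, as a Cre reporter, Rosa26 LSL-YFP/LSL-YFP. The mice received by intubation a lentivirus, LentiCRISPRv2Cre, which carries Cre, Cas9 and 1 guide. The guide was sgBGal in KPY-Ctrl and sgSetd2 in KPY-Setd2KO, so loss of p53, the YFP reporter, Cre and Cas9 were common to both groups. The study's mice were transduced at up to 20 weeks of age, and the age at collection is not given in the sources used here. Each tumor was dissected and digested, and live YFP-positive cells were sorted. Recombination by the virus is not limited to 1 lung cell type, and single tumors edited by CRISPR can differ in their alleles. The labels describe RNA from cell lines, which goes against the dissected tumors of the study's methods, and the methods were followed here. A legend of the study gives fewer mice than tumors in each group, the mouse of each tumor is not known here, and p-values treat the tumors as independent.

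Lkb1, the product of Stk11, is a kinase that works in a complex with the pseudokinase Strad and the scaffold Mo25, encoded by Strada and Cab39. It phosphorylates the activation loop of AMPK and of a family of related kinases that includes the salt-inducible kinases. AMPK is a trimer of a catalytic α, a scaffolding β and a nucleotide-binding γ subunit that senses low cellular energy and restrains mTORC1, in part through Tsc2. Salt-inducible kinases keep the Crtc coactivators of Creb out of the nucleus. Lkb1 is a well-known tumor suppressor in lung adenocarcinoma. These steps are set largely by phosphorylation, which RNA levels do not show.

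Libraries held 27866266 to 51828846 counts (KPY-Ctrl) or 20072236 to 40604404 counts (KPY-Setd2KO), and the 10 genes had 6 to 8069 counts per tumor, the fewest for Prkaa2. Setd2, the targeted gene, measured 41.9 to 63.6 CPM (counts scaled to a common library size by TMM) in KPY-Ctrl and 17.9 to 47.4 CPM in KPY-Setd2KO, with overlapping groups and a log2 fold change of -0.74 (standard error 0.22, adjusted p = 0.175, edgeR's quasi-likelihood test). A CRISPR cut in coding sequence does not need to lower RNA, so this level checks the labels in part only. Sorted tumors differed widely in RNA of leukocyte markers. The summed level of the 13 leukocyte genes, which included Ptprc, Cd53 and Tyrobp, was 621 to 9686 CPM across KPY-Ctrl tumors and 340.4 to 12859 CPM across KPY-Setd2KO tumors. In the same order of genotypes, the 9 macrophage genes summed to 355 to 36286 CPM and 253 to 62605 CPM, and the 10 epithelial genes, Epcam and Krt8 among them, to 13503 to 61225 CPM and 5627 to 48688 CPM. The 11 genes of T cells, B cells and neutrophils, of which 6 passed the filter, summed to at most 59.5 CPM, endothelial genes to at most 60.4 CPM and fibroblast genes to at most 88.2 CPM in any tumor, and erythroid genes to at most 752 CPM. A leukocyte-marker score, the mean log2 CPM of its 13 genes, fell into 2 ranges. It was 3.81 to 5.86 in 7 tumors (KPY-Ctrl replicates 3 to 5 and KPY-Setd2KO replicates 5 to 8) and 8.43 to 9.20 in the other 7, so each range held 3 KPY-Ctrl and 4 KPY-Setd2KO tumors.

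Levels of the 10 genes can be compared only per length, here as RPKM over the merged exons of each gene. Prkag1, the γ1 subunit, had the highest median over the 14 tumors at 23.5 RPKM, followed by the β1 subunit Prkab1 at 18.9 RPKM, Stk11 at 14.1, Cab39 at 12.97, Prkaa1 at 11.05 and Sik1 at 8.93 RPKM. Each of the first 5 exceeded the next in the order in only 8 to 10 of 14 tumors, so neighbours among these 6 were not apart beyond their spread. Sik1 exceeded Sik3 in 14 of 14 tumors, and Sik3 (median 2.61 RPKM), Strada (2.37 RPKM), Sik2 (1.40 RPKM) and Prkaa2 (0.27 RPKM) formed the lower part of the order. Within that lower part Sik3 was above Strada in 11, Strada above Sik2 in 12 and Sik2 above Prkaa2 in 13 of 14 tumors.

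**Figure D1:**
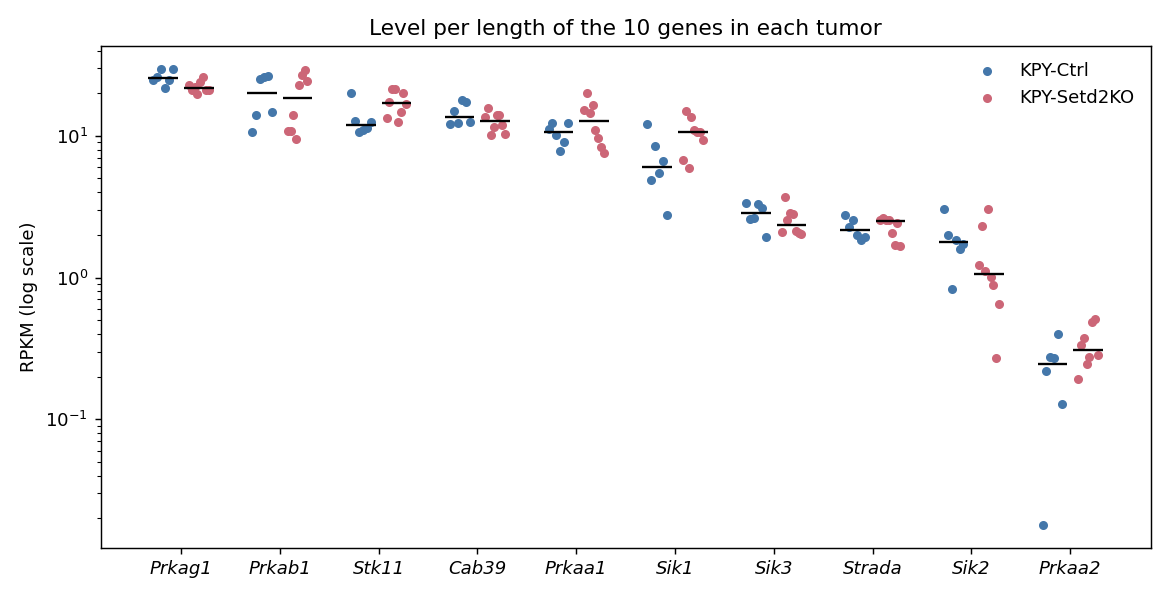
Level per length of the 10 genes, in RPKM on a log axis, with 1 point per tumor and a bar at the median of each genotype (blue, KPY-Ctrl; red, KPY-Setd2KO). Prkag1 is at the top with a median of 23.5 RPKM over all tumors, and Prkaa2 at the bottom with 0.27 RPKM.

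The AMPK subunits were dominated by 1 isoform each. Per length, Prkaa2 made up 0.16% to 4.20% of the RNA of both α subunits in KPY-Ctrl (median 2.19%) and 1.25% to 5.77% in KPY-Setd2KO (median 2.47%), so the α1 gene Prkaa1 supplied nearly all α RNA in both genotypes. Prkab1 made up 94.7% to 97.8% of β RNA in KPY-Ctrl and 93.2% to 99.2% in KPY-Setd2KO, and Prkag1 made up 88.2% to 91.5% and 79.3% to 91.7% of γ RNA. Among the Lkb1 partners, Strada held 55.7% to 73.4% of the RNA of both Strad genes in KPY-Ctrl and 60.5% to 76.5% in KPY-Setd2KO, and Cab39 held 61.2% to 80.2% and 55.8% to 78.2% of the RNA of both Mo25 genes. The salt-inducible kinases were led by Sik1, at 43.2% to 71.1% (median 55.0%) of their summed RNA in KPY-Ctrl and 61.9% to 82.0% (median 72.8%) in KPY-Setd2KO. Each of these shares overlapped between the genotypes.

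To ask whether loss of Setd2 went with a change in RNA of the pathway, the genotypes were compared in edgeR's quasi-likelihood test across all genes. None of the 10 genes passed an adjusted p of 0.05, against 0% of all genes tested, and the smallest adjusted p among them was 0.347. At an unadjusted p under 0.05 there was 1 of the 10, against 13.7% of all genes. Adjusted calls among the 10 were also 0 with DESeq2 (3 at an unadjusted p under 0.05), which called 770 of 16836 genes. They were 0 with limma voom (2 at an unadjusted p under 0.05), which called 0 genes. With limma voom and sample quality weights they were 4, in a fit that called 8340 of 16836 genes. The share of all genes at an unadjusted p under 0.05 was not counted in these fits. The genotypes overlapped in CPM for each of the 10 genes, while 0.570% of all genes did not overlap. By direction 5 of the 10 were higher and 5 lower in KPY-Setd2KO (52.7% and 47.3% of all genes), with a median log2 fold change of -0.02 against 0.03 over all genes tested.

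**Figure D2:**
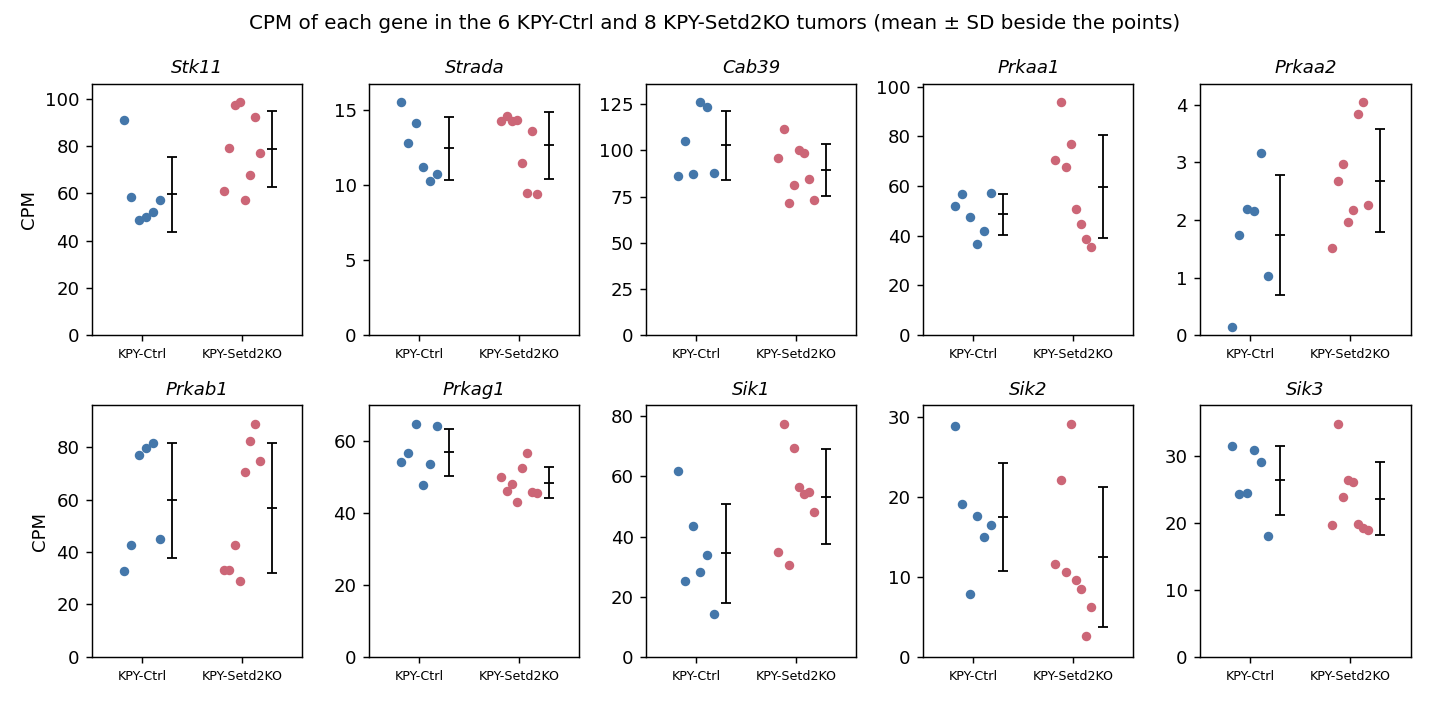
CPM of each gene in the 6 KPY-Ctrl (blue) and 8 KPY-Setd2KO (red) tumors, in replicate order from left to right, with the mean and SD to the right of the points and each axis starting at 0. The 2 genotypes overlap in every panel, and Prkab1 splits into a lower and an upper set of tumors within both genotypes.

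Stk11 (ENSMUSG00000003068.16, GRCm38 chr10:80115803-80130682, plus strand) was the gene with an unadjusted p under 0.05. It measured 91.1, 58.5, 48.6, 50.02, 51.9 and 57.2 CPM in KPY-Ctrl replicates 1 to 6. In KPY-Setd2KO replicates 1 to 8 it measured 61.2, 79.4, 97.5, 98.6, 57.3, 67.9, 92.4 and 77.1 CPM. The lowest 4 values were those of KPY-Ctrl tumors, while replicate 1 of that group lay among the highest KPY-Setd2KO tumors, so the groups overlapped. The means were 59.6 ± 15.95 CPM (SD, n = 6) and 78.9 ± 16.1 CPM (SD, n = 8). The log2 fold change was 0.41 (standard error 0.18, edgeR, unadjusted p = 0.0440, adjusted p = 0.347), or 1.33-fold with a 95% interval of 1.01 to 1.74. Without KPY-Ctrl replicate 1 it was 0.57 (adjusted p = 0.126). Over all fits that left out 1 tumor it ran from 0.35 to 0.57, with adjusted p-values from 0.126 to 0.612 (edgeR). The unadjusted p was above 0.05 in several fits, such as 0.0957 without KPY-Ctrl replicate 3. It was also 0.0890 with library size only and 0.0753 without the filter (edgeR). Exons of Stk11 overlap those of Cbarp on the opposite strand, and whether reads were assigned by strand is not given in the sources used here.

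Neither partner of Lkb1 passed the test. Strada (GRCm38 chr11:106163330-106202168) measured 10.3 to 15.5 CPM with a median of 11.98 in KPY-Ctrl, and 9.37 to 14.5 CPM with a median of 13.9 in KPY-Setd2KO. Its log2 fold change of 0.02 had a 95% interval of -0.32 to 0.37, and changed sign with small changes in the fit. Strada shares exons with its neighbour Ccdc47 on the same strand, so the 2 genes could share reads. Cab39 (GRCm38 chr1:85793441-85851576) measured 86.3 to 126.1 CPM (median 96.6) in KPY-Ctrl and 71.6 to 111.6 CPM (median 90.0) in KPY-Setd2KO, with a log2 fold change of -0.20 and an interval of -0.52 to 0.12. The highest Cab39 values were those of KPY-Ctrl replicates 4 and 5.

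Among the AMPK subunits, Prkaa1 (GRCm38 chr15:5143861-5181899), the α1 catalytic subunit, measured 36.6 to 57.1 CPM in KPY-Ctrl (median 49.7) and 35.3 to 93.7 CPM in KPY-Setd2KO (median 59.3). The spread in KPY-Setd2KO held both the lowest and the highest tumors of the series, and the log2 fold change was 0.30 (95% interval -0.19 to 0.78, edgeR, adjusted p = 0.622). Prkaa2 (GRCm38 chr4:105029874-105109890), the α2 form known from muscle, measured 0.143 to 3.16 CPM in KPY-Ctrl and 1.52 to 4.05 CPM in KPY-Setd2KO. Its lowest value, in KPY-Ctrl replicate 1, rested on 6 counts, with an exact Poisson interval of 0.0526 to 0.312 CPM that covers counting error only. The log2 fold change of Prkaa2 was 0.63 (95% interval -0.40 to 1.66), and 0.38 without that tumor.

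Prkab1 (GRCm38 chr5:116013586-116024508), the β1 scaffold, measured 32.8, 42.7, 77.0, 79.6, 81.5 and 45.2 CPM in KPY-Ctrl replicates 1 to 6. In KPY-Setd2KO replicates 1 to 8 it measured 33.3, 33.2, 42.8, 28.9, 70.4, 82.3, 88.9 and 74.8 CPM. In both genotypes the tumors fell into a lower and an upper set with no tumor between 45.2 and 70.4 CPM, and the genotype log2 fold change was -0.07 (95% interval -0.75 to 0.60). Prkag1 (GRCm38 chr15:98812797-98831521), the γ1 subunit that binds AMP and ATP, was the steadiest, with 47.7 to 64.7 CPM in KPY-Ctrl (median 55.3) and 43.0 to 56.7 CPM in KPY-Setd2KO (median 47.1). Its log2 fold change was -0.23 (standard error 0.11, edgeR, adjusted p = 0.395), with an interval of -0.47 to 0.01. Exons of Prkag1 overlap an annotated antisense gene, B130046B21Rik.

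Of the salt-inducible kinases, Sik1 (GRCm38 chr17:31844250-31855804), itself a known Creb target, measured 61.8, 25.1, 43.4, 28.1, 33.9 and 14.3 CPM in KPY-Ctrl replicates 1 to 6. In KPY-Setd2KO replicates 1 to 8 it measured 34.9, 77.4, 30.5, 69.3, 56.3, 54.3, 54.7 and 48.2 CPM. Of the 8 KPY-Setd2KO tumors 6 lay above every KPY-Ctrl tumor but replicate 1. The log2 fold change was 0.63 (standard error 0.30, edgeR, unadjusted p = 0.0534, adjusted p = 0.377), and 0.88 without KPY-Ctrl replicate 1 (adjusted p = 0.158). Over all fits that left out 1 tumor it ran from 0.47 (without KPY-Ctrl replicate 6, edgeR, adjusted p = 0.468) to 0.88, with adjusted p-values up to 0.640. Sik2 (GRCm38 chr9:50892801-51009073) varied most after Prkaa2, with 7.90 to 28.8 CPM in KPY-Ctrl (median 17.0) and 2.59 to 29.2 CPM in KPY-Setd2KO (median 10.1). The log2 fold change of Sik2 was -0.48, with a 95% interval of -1.41 to 0.46, and its exons overlap Ppp2r1b on the opposite strand. Sik3 (GRCm38 chr9:46012820-46224194) measured 17.999 to 31.4 CPM in KPY-Ctrl and 18.9 to 34.7 CPM in KPY-Setd2KO, with a log2 fold change of -0.16 and an interval of -0.53 to 0.22.

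**Figure D3:**
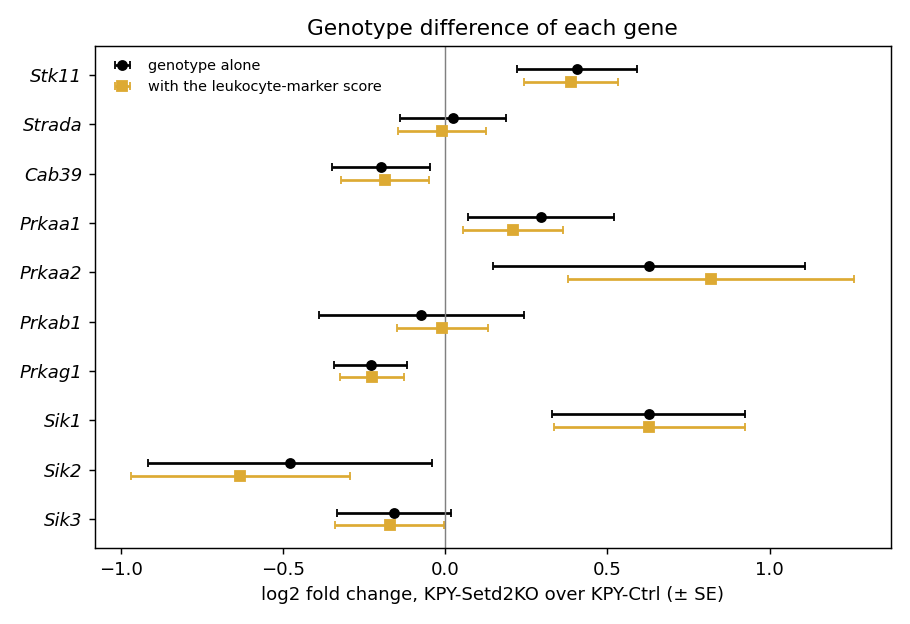
Log2 fold change of KPY-Setd2KO over KPY-Ctrl for each gene, with bars of 1 standard error, from edgeR on genotype alone (black circles) and on genotype plus the leukocyte-marker score (yellow squares). Stk11 is at 0.41 and 0.39, Sik1 at 0.63 in both fits, and Prkab1 at -0.07 and -0.01.

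Because leukocyte RNA varied among the tumors of both genotypes, each gene was also tested for a slope on the leukocyte-marker score in an edgeR fit that held genotype. Of the 10 genes 4 had a slope at an adjusted p under 0.05, against 57.0% of all genes tested, 1 negative (28.6% of all genes) and 3 positive (28.5%). In bulk RNA, more cells of a type and more RNA per cell cannot be told apart. The epithelial genes ran against the score. They summed to 5627 to 21863 CPM in the 7 tumors with scores of 8.43 or more and 21008 to 61225 CPM in the 7 others. A slope on the score therefore cannot be told apart from an opposite slope on epithelial RNA. Prkab1 fell by 0.25 on the log2 scale per unit of score (standard error 0.03, edgeR, adjusted p = 2.11e-05). It measured 28.9 to 45.2 CPM in the 7 tumors with scores of 8.43 or more and 70.4 to 88.9 CPM in the 7 others. These values did not overlap, in both genotypes alike. The share of all genes without overlap between the score ranges was not counted, so the split cannot be called particular to Prkab1. The same limit holds for Prkaa1 below. The slope of Prkab1 passed the threshold in each of the 17 alternatives run for it, between -0.33 and -0.21.

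Prkaa1 and Sik2 went the other way. Prkaa1 rose by 0.13 per unit of score (standard error 0.03, edgeR, adjusted p = 0.00408), from 35.3 to 50.9 CPM in the tumors with low scores to 51.9 to 93.7 CPM in those with high scores. Sik2 rose by 0.24 per unit (standard error 0.08, edgeR, adjusted p = 0.0162), from 2.59 to 17.6 CPM to 10.6 to 29.2 CPM, with overlap. Stk11 rose by 0.09 per unit (standard error 0.03, edgeR, adjusted p = 0.0365). The call for Stk11 was lost in 8 of the 14 fits that left out 1 tumor, namely KPY-Ctrl replicates 1, 3, 4 and 5 and KPY-Setd2KO replicates 3 to 6, with adjusted p-values up to 0.128. With scaling by library size only, which moved the median slope of all genes from -0.01 to -0.09, the slopes of Prkaa1 (0.06), Sik2 (0.16) and Stk11 (0.01) no longer passed, that of Prkab1 did, and those of Cab39 (-0.11, edgeR, adjusted p = 0.0132), Prkaa2 (-0.26, adjusted p = 0.0378) and Prkag1 (-0.0952, adjusted p = 0.00183) newly passed. The slopes of the other 6 genes ran from -0.19 for Prkaa2 to 0.06 for Strada and did not pass with TMM scaling, except that Strada passed without KPY-Ctrl replicate 3 (0.0832, edgeR, adjusted p = 0.0360). Whether RNA carried in by leukocytes has a part in these slopes was not tested.

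**Figure D4:**
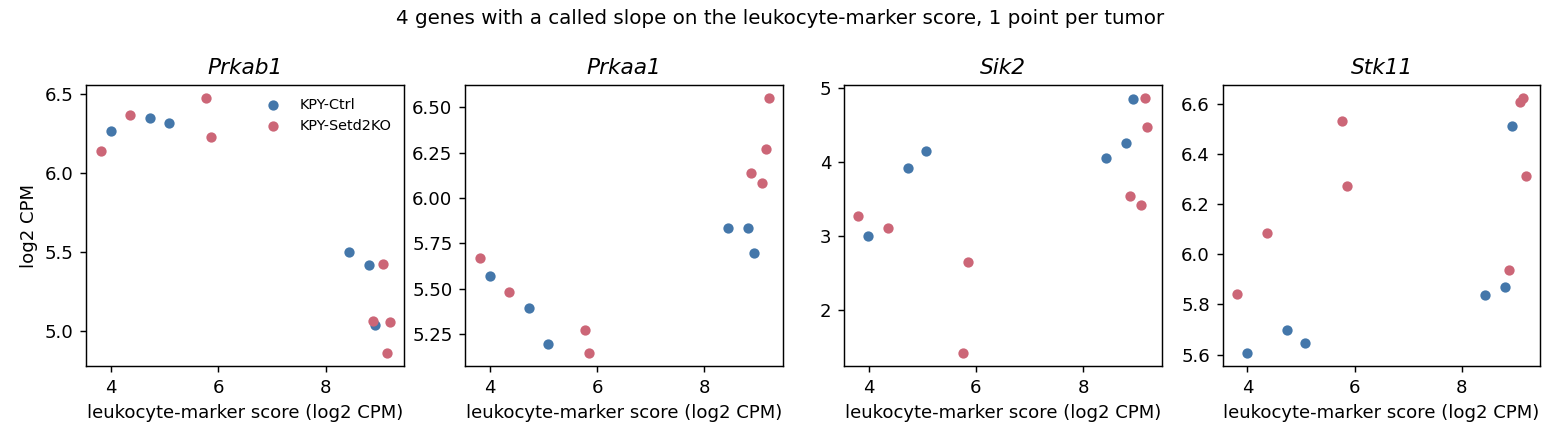
Log2 CPM of Prkab1, Prkaa1, Sik2 and Stk11 against the leukocyte-marker score (mean log2 CPM of 13 markers), 1 point per tumor, colored by genotype. No tumor has a score between 5.86 and 8.43, Prkab1 is lower and Prkaa1 higher in the 7 tumors to the right of that gap, and Stk11 overlaps between the 2 sides.

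With the score added to the fit, 3 of the 10 genes had an unadjusted p under 0.05 for genotype, against 23.8% of all genes, and none passed the adjusted threshold, against 5.38% of all genes. Stk11 measured a log2 fold change of 0.39 (standard error 0.14, edgeR, adjusted p = 0.119), Prkag1 -0.23 (adjusted p = 0.182) and Sik1 0.63 (adjusted p = 0.209). Within the 7 tumors with low scores, Stk11 was at 48.6 to 51.9 CPM in KPY-Ctrl and 57.3 to 92.4 CPM in KPY-Setd2KO, and Sik1 at 28.1 to 43.4 and 48.2 to 56.3 CPM. These 2 of 10 genes did not overlap there, against 26.8% of all genes. Within the 7 tumors with high scores, Prkaa1 (51.9 to 57.1 and 67.6 to 93.7 CPM) and Prkag1 (54.0 to 64.1 and 43.0 to 49.8 CPM) did not overlap, 2 of 10 against 13.4% of all genes. Shares of this size among the 10 genes are near those of all genes. Setd2, the targeted gene, was at 41.9 to 63.6 CPM in KPY-Ctrl and 17.9 to 28.2 CPM in KPY-Setd2KO with low scores. With high scores it was at 44.8 to 56.0 and 32.7 to 47.4 CPM, so its overlap lay there. In the fit with the score its log2 fold change was -0.84 (standard error 0.19, edgeR, adjusted p = 0.0264).

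RefSeq promoters of GRCm38.p6, 250 bases before to 50 after the start site, were found for 9 of the 10 genes, Sik1 being the other. The 4 genes with a called slope on the score are shown, since 1 of them moved against the other 3, each read 5′ to 3′ along its gene. Capitals mark the GC box GGGCGG and the CCAAT box CCAAT on either strand, some of which overlap.
Prkab1, chr5:116024379-116024678, minus strand: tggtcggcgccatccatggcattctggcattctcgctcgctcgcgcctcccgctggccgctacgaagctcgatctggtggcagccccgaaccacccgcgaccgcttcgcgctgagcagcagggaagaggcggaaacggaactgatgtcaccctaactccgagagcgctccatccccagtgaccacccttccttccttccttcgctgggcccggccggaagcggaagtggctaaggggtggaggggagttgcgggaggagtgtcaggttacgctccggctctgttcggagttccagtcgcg
Prkaa1, chr15:5143611-5143910, plus strand: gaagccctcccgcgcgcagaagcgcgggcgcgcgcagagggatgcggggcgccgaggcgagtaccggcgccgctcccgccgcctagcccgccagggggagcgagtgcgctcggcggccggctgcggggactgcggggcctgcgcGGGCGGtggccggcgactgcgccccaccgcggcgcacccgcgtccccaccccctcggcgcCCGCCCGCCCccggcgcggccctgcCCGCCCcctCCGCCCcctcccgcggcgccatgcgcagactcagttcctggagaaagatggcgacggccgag
Sik2, chr9:51009024-51009323, minus strand: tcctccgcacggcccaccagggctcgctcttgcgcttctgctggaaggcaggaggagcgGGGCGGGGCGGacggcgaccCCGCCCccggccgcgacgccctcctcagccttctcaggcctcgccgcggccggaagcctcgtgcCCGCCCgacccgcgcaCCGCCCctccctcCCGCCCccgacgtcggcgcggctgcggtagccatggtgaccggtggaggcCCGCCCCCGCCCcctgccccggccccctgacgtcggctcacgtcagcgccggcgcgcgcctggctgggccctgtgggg
Stk11, chr10:80115545-80115844, plus strand: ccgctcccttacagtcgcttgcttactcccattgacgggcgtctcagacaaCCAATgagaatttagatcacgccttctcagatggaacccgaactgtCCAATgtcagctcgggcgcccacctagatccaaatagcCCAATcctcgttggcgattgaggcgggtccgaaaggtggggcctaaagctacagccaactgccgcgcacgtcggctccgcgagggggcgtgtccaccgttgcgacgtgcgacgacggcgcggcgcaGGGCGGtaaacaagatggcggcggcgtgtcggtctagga
The GC box occurred 0 times in the window of Prkab1, 5 times in that of Prkaa1, 8 times in that of Sik2 and 1 time in that of Stk11, and 35.7% of 32851 promoters of this length held at least 1. The CCAAT box occurred 3 times in the Stk11 window and not in the other 3 windows, and 37.4% of all promoters held it. These windows were 65.3%, 82.0%, 80.0% and 61.3% G and C, against a median of 52.7% over all promoters. The promoters of genes without a called slope did not differ in kind. Those of Strada, Cab39, Prkaa2 and Prkag1 held 2 GC boxes each, and that of Sik3 held 0, as did that of Prkab1. That of Prkag1 also held 1 CCAAT box. The cyclic AMP response element TGACGTCA, the site known for Creb, was in none of the 9 promoters and in 1.79% of all, and the E box CACGTG was in that of Sik3 alone and in 7.15% of all. A match to letters is not evidence of binding.

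The rest of the pathway was read from lists of other subunits, kinases, substrates and targets. Of 64 genes outside the 10 in these lists, 62 were tested, and 6 had an unadjusted p under 0.05, of which 1 was higher (6.93% of all genes) and 5 lower (6.80%) in KPY-Setd2KO, with none past the adjusted threshold. Their median log2 fold change was 0.03, the same as over all genes. Of the 18 AMPK substrates 14 were below 0, as were 47.3% of all genes, with a median of -0.24. At an unadjusted p under 0.05 there were 4 (13.7% of all genes), all 4 lower (6.80%). Of the same 18, 9 had a called negative slope on the leukocyte-marker score, against 28.6% of all genes, and the part of leukocyte RNA in the list's values was not tested. With the score in the fit the median was also -0.24. Tsc2, which restrains mTORC1, measured 55.9 to 106.3 CPM in KPY-Ctrl and 40.2 to 52.2 CPM in KPY-Setd2KO, so the groups did not overlap. The same held for 0.570% of all genes, and Tsc2 was named for having the smallest p of its list. Its log2 fold change was -0.63 (standard error 0.15, edgeR, adjusted p = 0.128), and -0.57 with the leukocyte-marker score (adjusted p = 0.0172). The other 3 were Tbc1d4, a regulator of glucose transporter traffic, at -0.86 (edgeR, adjusted p = 0.175), Acacb, an acetyl-CoA carboxylase, at -1.26 (adjusted p = 0.274), and Gys1, glycogen synthase, at -0.66 (adjusted p = 0.317). Tsc2, Acacb and Gys1 were among the 9 substrates with a called negative slope, at -0.08, -0.31 and -0.21.

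The other pathway lists held few such genes. Among the 5 other Lkb1 and AMPK subunits (median -0.13), Prkag3, the γ3 form known from skeletal muscle, was at 0.24 to 1.85 CPM in KPY-Ctrl and 0.30 to 8.46 CPM in KPY-Setd2KO, a log2 fold change of 2.23 (standard error 0.77, edgeR, adjusted p = 0.231) that rested on low counts. Of the 3 other kinases above AMPK (median -0.21), Camkk1 was at -1.11 (edgeR, adjusted p = 0.338). With the leukocyte-marker score the adjusted p was 0.0386 for Prkag3 and 0.0484 for Camkk1 (edgeR). With Tsc2 these were the only 3 called in that fit among the 62 tested genes of all these lists, against 5.38% of all genes. Of the 9 other kinases under Lkb1, 7 were tested (median 0.06), with the smallest p for Mark4, a microtubule-affinity kinase, at 0.48 (adjusted p = 0.392). The 10 genes of Sik substrates and the Creb family had a median of 0.05, with the smallest p for Crtc1 at -0.57 (edgeR, adjusted p = 0.394).

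Creb targets and immediate early genes, which can rise when tissue is digested, were read beside Sik1. Of 12 Creb targets 10 were above 0 (median 0.30), and of 13 immediate early genes 12 were (median 0.28), as were 52.7% of all genes, with 0 in either list at an unadjusted p under 0.05. Junb had the smallest p in both, at a log2 fold change of 1.00 (standard error 0.58, edgeR, adjusted p = 0.478), and Fos, Fosb, Dusp1 and Nr4a1 stood in both lists with it. With the leukocyte-marker score in the fit the medians were 0.0908 and 0.0423. Slopes on that score were positive and past the adjusted threshold for 9 of 12 Creb targets and 12 of 13 immediate early genes, against 28.5% of all genes, while that of Sik1 was -0.01 (edgeR, adjusted p = 0.952). Leaving out 1 tumor moved the median of the Creb targets to between 0.11 (without KPY-Setd2KO replicate 4) and 1.34 (without KPY-Ctrl replicate 1). That of the immediate early genes moved to between 0.0803 (without KPY-Ctrl replicate 4) and 1.10 (without KPY-Ctrl replicate 1). The part of digestion or of leukocyte RNA in these values was not tested.

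**Figure D5:**
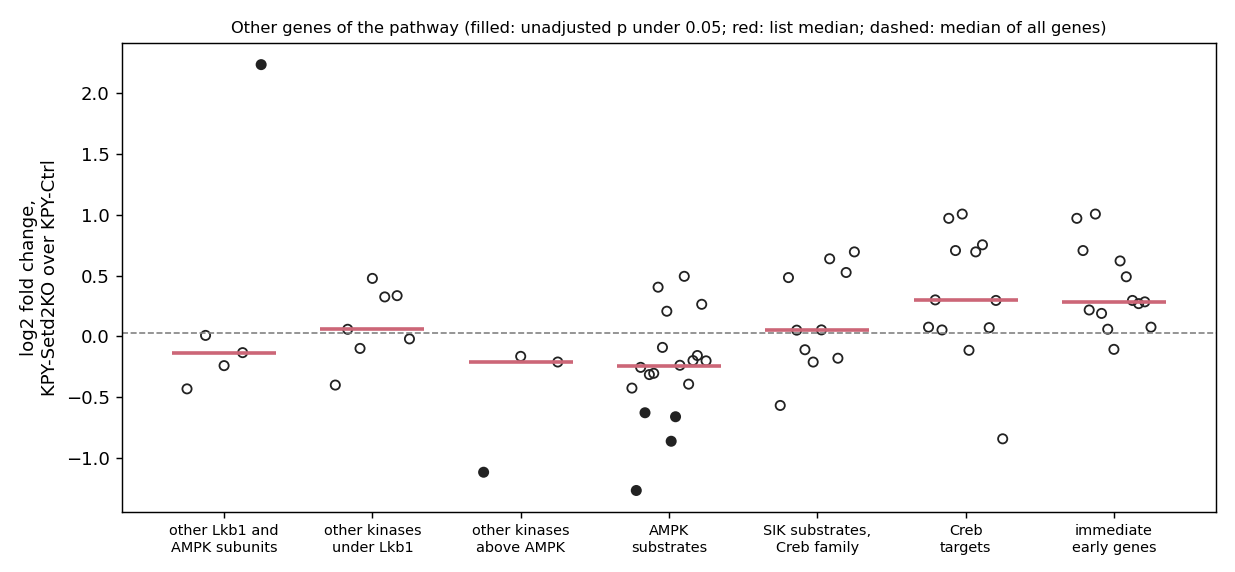
Log2 fold change of KPY-Setd2KO over KPY-Ctrl for the tested genes of 7 lists of other pathway genes, 1 point per gene, filled where the unadjusted p is under 0.05. Red bars are list medians and the dashed line is the median of all genes tested at 0.03; the AMPK substrates have 14 of 18 points below 0.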

How the data were processed

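The data are RNA-seq of 6 KPY-Ctrl and 8 KPY-Setd2KO tumors. Single-end reads were quantified with Salmon 0.8.2 against GRCm38.p5, per the methods and the labels' processing notes. The deposited values are estimated counts for each Ensembl gene, in whole numbers and not normalized, and the 8 largest values, in 3 genes, were written with 3 digits only. The labels and the methods name different RNA and library kits, and how transcripts were summed is not given in the sources used here. Of 52550 rows, 52403 matched GENCODE M21 (GRCm38) by identifier without version, which gave symbols, lengths and coordinates.

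Genotypes were compared with edgeR 4.0.16 under R 4.3.3 (filterByExpr, TMM, robust quasi-likelihood test, Benjamini-Hochberg adjustment over 16836 genes). Standard errors were taken from the fold change and the F statistic, and 95% intervals from the t distribution. Log2 CPM used a prior count of 2. Alternatives used DESeq2 1.42.0 and limma 3.58.1. The procedure was tested on simulated counts. Members, lists and tests were chosen with earlier results of these data known. Named genes were the 10, Setd2 and, per list, up to 4 genes with the smallest p under 0.05, or else the gene with the smallest p. Where the score ranges were used, that choice was made after seeing the data. An allele that both groups shared is not reported here.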

Additional observations from a re-analysis of the deposited data

Results flagged for a closer look

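KPY-Ctrl replicate 1 stood far from its group in Stk11, with a level of 6.51 on the log2 CPM scale where the 5 others lay between 5.60 and 5.87, a gap of 0.706 of the whole range. Of 40 groups of values examined this was the 1 with a tumor far from the rest. By chance about 1 group in 20 holds such a tumor, so 1 in 40 is no more than chance would give. KPY-Ctrl replicate 1 also held the lowest Prkaa2 value of the series and the highest Sik1, Sik2 and Sik3 values of KPY-Ctrl. Its leukocyte-marker score, 8.93, was the highest of KPY-Ctrl as well.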

How the results depend on the processing

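Genes called for genotype, 0 in edgeR, were 770 with DESeq2, 8340 with quality weights in limma voom, 906 when the leukocyte-marker score was added, and 0 to 1 without single tumors, the 1 without KPY-Ctrl replicate 6. Genes of the 10 at an unadjusted p under 0.05, 1 in edgeR, were 0 without the filter, 3 with DESeq2, 2 with limma voom, 5 with quality weights, 3 with the score and 0 with the replicate block. The share of all genes at that threshold was 13.7% in edgeR and 23.8% with the score, and was not counted in the other fits. Leaving out 1 tumor gave 0 of the 10 (KPY-Ctrl replicates 2, 3, 5 and 6, KPY-Setd2KO replicates 2, 4, 7 and 8) to 2 (KPY-Ctrl replicate 1, KPY-Setd2KO replicates 1 and 6). Where the number stayed at 1, the gene was not always Stk11. It was Prkag1 with library size only (edgeR, unadjusted p = 0.0359) and without KPY-Ctrl replicate 4 (0.0328). It was Sik1 without KPY-Setd2KO replicate 3 (edgeR, unadjusted p = 0.0304). With quality weights Stk11 (0.61), Cab39 (-0.41), Prkaa1 (0.62) and Prkab1 (-0.78) passed the adjusted threshold, and list medians moved to -0.68 (AMPK substrates), 1.83 (Creb targets) and 2.21 (immediate early genes). Setd2 passed with DESeq2 (-0.74), quality weights (-0.75) and the score (-0.84). The cause of these differences was not tested.

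Strada was at -0.13 under scaling by library size alone (the median over all genes then shifted by -0.14), at -0.0249 without the filter and at -0.0107 with the score. Without single tumors it ran from -0.0295 to 0.0972 and Prkab1 from -0.20 to 0.0271. Slopes on the score turned for Strada (-0.0147) and Sik3 (-0.0597) with library size only, and ran from -0.0708 to 0.0217 for Sik1 and from -0.00412 to 0.0395 for Sik3 without single tumors. Genes of the 10 with a called slope numbered 3 to 4 without single tumors and 4 with library size only, where Cab39, Prkaa2 and Prkag1 took the place of Prkaa1, Sik2 and Stk11. With the replicate block the medians of the Creb targets and the immediate early genes were 0.81 and 0.83.

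Per longest coding transcript, median RPKM was 30.9 for Prkag1, 27.7 for Prkab1, 25.2 for Stk11, 24.1 for Cab39, 3.87 for Sik3, 3.89 for Strada and 2.48 for Sik2, so that Strada and Sik3 changed places.

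Deviations of same-numbered tumors correlated at -0.664 to 0.657 over 6 pairs. The correlation was positive for replicates 1, 2 and 5, whose tumors shared a range of the leukocyte-marker score. It was negative for replicates 3, 4 and 6, whose tumors lay in opposite ranges. The check therefore cannot tell pairing from that score. The labels give no pairing, and none was taken from the numbers. With the replicate block, edgeR called 0 genes and 0 of the 10.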

Other observations

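The genes whose log2 CPM, centred within genotype, followed Stk11 most closely over the 14 tumors were Gm1821 (Spearman's rho = 0.912), Cracr2b (0.903), Dnal4 (0.899), Ctdsp1 (0.895) and Gm7609 (0.890). For Sik1 they were Acad12 (0.868), Mxd1 (0.842), Gm45015 (0.837), Gm17275 (0.824) and Kif16b (0.824). These are the highest of 16836 values and are descriptions only, since the tumors share the spread in leukocyte RNA. When the levels were also centred within the 2 ranges of the leukocyte-marker score, a choice made after seeing the data, rho was 0.916 for Ctdsp1 with Stk11 and 0.684 for Gm7609, and 0.903 for Kif16b with Sik1.

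Among pairs of the 10 genes, Prkab1 ran opposite to Sik2 (rho = -0.890 within genotype) and to Prkaa1 (-0.855), and Prkaa1 ran with Sik2 (0.758). With the score ranges also centred these were -0.582, -0.134 and 0.257. The pair of Prkaa2 and Prkab1 stood at 0.732 and then 0.820, and that of Sik1 and Sik3 at 0.644 and 0.596.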
